A study of Mus musculus with 11 samples.

Results

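The 10 genes described here encode secreted proteins, membrane proteins and an enzyme that gastric and other mucosal epithelia are known to make in defence against microbes or in metaplasia: Dmbt1, Wfdc2, Clu, Lcn2, Reg3b, Reg3g, Duox2, Duoxa2, Nos2 and Olfm4. They are 10 of the 34866 genes in the deposited table, and were chosen by name with earlier results of these data in view. Of their values, only the higher level of Dmbt1 in every line against control was used in the choice. That contrast of Dmbt1 is therefore given as a description, without a test.

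The RNA came from mouse gastric corpus mucosa, in 11 samples of 4 genotypes. The 2 control samples were wild type (WT). ATP4B-DTR and GIF-DTR had 3 samples each, and so had GIF/ATP4B-DTR, the combined line, where DTR is the usual abbreviation of the diphtheria toxin receptor, a cell-ablation tool. Atp4b encodes a proton pump subunit of the acid-secreting parietal cell, and Gif encodes intrinsic factor, a product of mouse chief cells. The lines were made to ablate these cell types. Toxin treatment, promoter constructs, time, age, sex and batch are not given in the sources used here, nor whether the controls received toxin.

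In the mouse corpus, loss of parietal cells is known to be followed by spasmolytic polypeptide-expressing metaplasia (SPEM), in which gland-base cells take up mucous neck cell features. SPEM cells are known to secrete wound and defence proteins, among them clusterin, the whey acidic protein HE4 (Wfdc2) and DMBT1. A separate program, driven by interleukin-22, interleukin-17 and NF-kB, is known to induce the Reg3 lectins, lipocalin-2, the DUOX2 oxidase and inducible nitric oxide synthase in infected or inflamed epithelium.

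The libraries held between 20.7 and 27.9 M counts (M for mega). Levels are in CPM, the counts of a gene per M counts of its library, scaled with edgeR's TMM factors. A level of 3 counts, the smallest taken as detectable, corresponds to 0.107 to 0.166 CPM. Atp4b was 4786 and 4365 CPM in controls and between 158 and 683 CPM in the lines named for it. In GIF-DTR 1 to 3 it was 3470, 2136 and 2784 CPM, also below both controls. Gif was 702 and 2303 CPM in controls and between 65.5 and 218 CPM in the lines named for it. In ATP4B-DTR 1 to 3 it was 824, 332 and 755 CPM. The Y-linked gene Ddx3y lay between 40.9 and 53.3 CPM in the controls, ATP4B-DTR 1 and GIF/ATP4B-DTR 1 to 3, and at or under 0.0794 CPM in the other 5 samples. All GIF-DTR samples thus lacked Y-linked expression and both controls had it. In GIF-DTR against control, that difference and the line cannot be told apart except through the mixed ATP4B-DTR samples. The same holds for the combined line against GIF-DTR, since all samples of the combined line had Y-linked expression. In bulk tissue, fewer cells of a type and less RNA per cell cannot be told apart.

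Against control, the genes fell into 3 kinds. Dmbt1, Wfdc2 and Olfm4 were higher in every sample of every line than in both controls. Reg3g was higher in every sample of the lines that carry ATP4B-DTR. Clu, Duox2 and Duoxa2 were abundant in control mucosa and passed the test in no line, while Lcn2, Reg3b and Nos2 had at most 29 counts in any of the 11 samples.

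Of the 8 tested genes other than Dmbt1, 2 passed an edgeR quasi-likelihood test in ATP4B-DTR (Wfdc2 and Reg3g), 2 in GIF-DTR (Wfdc2 and Olfm4) and 3 in the combined line (Wfdc2, Reg3g and Olfm4), all higher, at a Benjamini-Hochberg adjusted p under 0.05. These are 25%, 25% and 37.5% of those tested. Over all 14889 genes tested, the called share was 21.6% for ATP4B-DTR, 16.8% for GIF-DTR and 33.6% for the combined line. Higher calls alone made up 12.2%, 9.97% and 18.2%. The share of called genes in this group is thus near that of the whole table, and what follows describes single genes. All 3 comparisons use the same 2 controls. Groups whose samples do not overlap, with the line higher, made up 25.3%, 25% and 29.1% of all genes tested in ATP4B-DTR, GIF-DTR and the combined line.

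**Figure D1:**
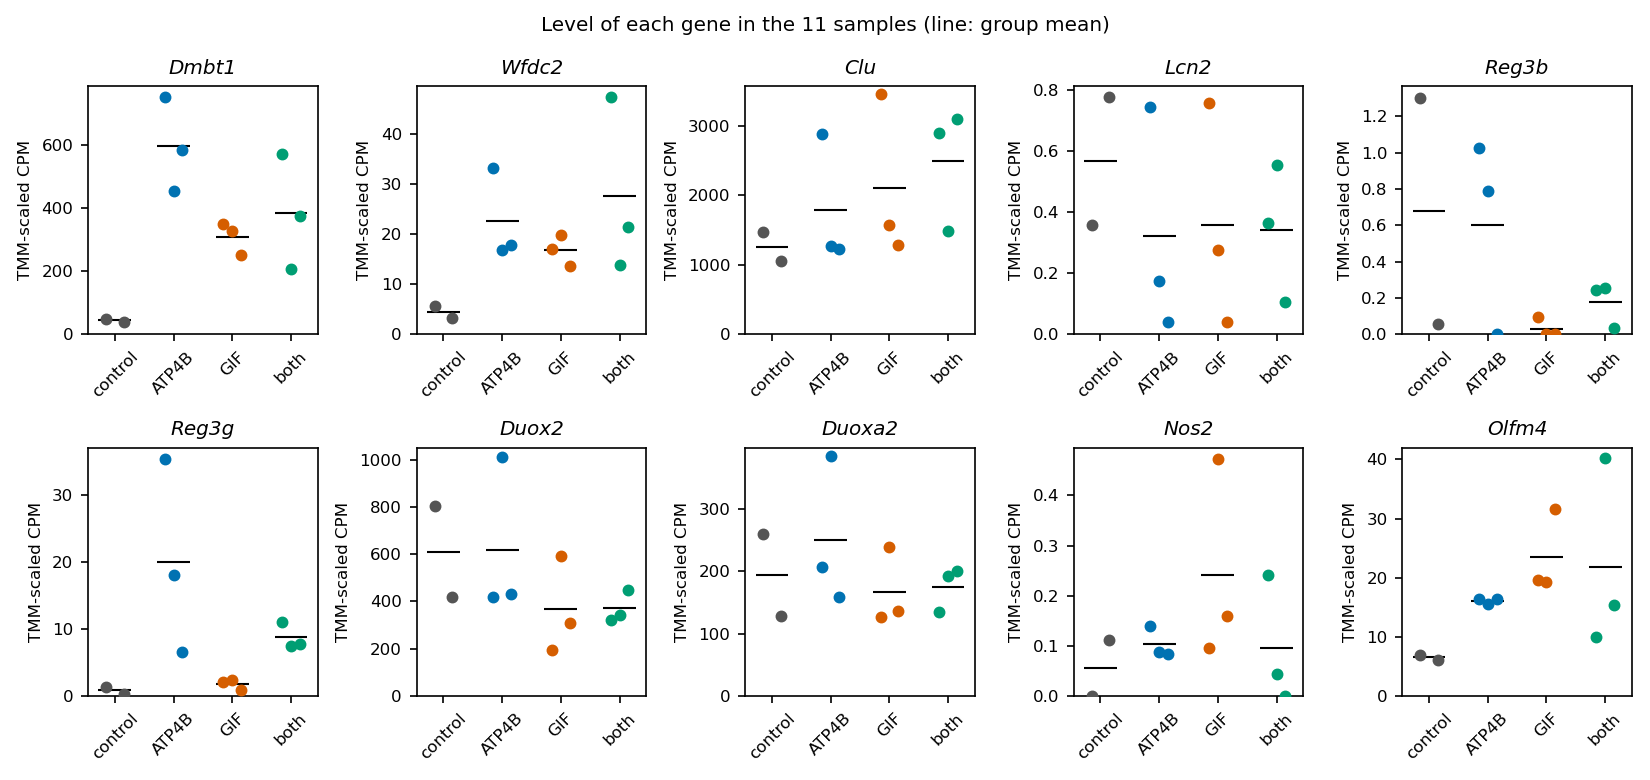
Level of each of the 10 genes in TMM-scaled CPM (y axis, linear, from 0) in the 11 samples (points), grouped by genotype (x axis; "both" is GIF/ATP4B-DTR, the combined line), with the group mean as a line. Dmbt1, Wfdc2 and Olfm4 lie above both controls in all 9 samples of the lines, while Lcn2, Reg3b and Nos2 reach at most 1.30 CPM.

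Dmbt1 (ENSMUSG00000047517.11, chromosome 7, 131032053 to 131121630, plus strand, GRCm38) encodes a large secreted scavenger-receptor protein that binds bacteria and mucins. Its level was 49.98 and 37.98 CPM in controls 1 and 2. It stood at 751, 455 and 582 CPM across ATP4B-DTR 1 to 3, at 349, 326 and 250.99 CPM across GIF-DTR 1 to 3, and at 570, 206 and 375 CPM across GIF/ATP4B-DTR 1 to 3. The lowest line sample, GIF/ATP4B-DTR 2, was above both controls. Fitted fold changes against control were 13.5 for ATP4B-DTR, 7.01 for GIF-DTR and 8.73 for the combined line.

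Between the lines, a contrast that did not enter the choice of genes, all 3 GIF-DTR samples lay below all 3 ATP4B-DTR samples in Dmbt1. The difference was −0.95 ± 0.32 log2 units (SE) and missed the threshold (edgeR adjusted p = 0.324). Samples that do not overlap, with GIF-DTR lower, were found for 7.62% of all genes. The combined line overlapped both single lines in Dmbt1, with differences of −0.63 ± 0.32 from ATP4B-DTR and 0.32 ± 0.32 from GIF-DTR (edgeR adjusted p of 0.522 and 0.614). In the annotation the whole of Dmbt1 lies within a long model of the opposite-strand gene Fgfr2. Fgfr2 was between 7.42 and 24.6 CPM over the 11 samples, and whether the counting used strand is not given in the sources used here. The counts of Dmbt1 were whole in all samples.

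Wfdc2 (ENSMUSG00000017723.11, chromosome 2, 164562413 to 164568510, plus strand) encodes HE4, a small secreted protein with whey acidic protein domains, the fold of several protease inhibitors. It was 5.66 and 3.16 CPM in controls 1 and 2, and 33.2, 16.9 and 17.9 CPM across ATP4B-DTR 1 to 3. In GIF-DTR 1 to 3 it was 17.0, 19.8 and 13.6 CPM, and in GIF/ATP4B-DTR 1 to 3 it was 47.3, 13.8 and 21.5 CPM. Every line sample was thus more than the higher control, and the widest spread was within the combined line.

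Wfdc2 rose by 2.35 ± 0.56 log2 units in ATP4B-DTR, by 1.92 ± 0.55 in GIF-DTR and by 2.63 ± 0.56 in the combined line. The edgeR adjusted p-values were 0.0165, 0.0419 and 0.00622. Without control 2 all 3 calls were lost, with changes of 2.00, 1.57 and 2.28 log2 units (edgeR adjusted p of 0.120, 0.202 and 0.0625). In GIF-DTR the call was also lost when any GIF-DTR sample, control 1, ATP4B-DTR 2 or 3, or GIF/ATP4B-DTR 3 was left out, with no filter on low counts, and with Y-linked expression as a covariate (2.86 log2 units, edgeR adjusted p = 0.0878). Without GIF/ATP4B-DTR 1 the change in the combined line was 1.99 log2 units and still passed (edgeR adjusted p = 0.00524). Wfdc2 passed in none of the comparisons between lines.

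Olfm4 (ENSMUSG00000022026.7, chromosome 14, 79984081 to 80023139, plus strand) encodes olfactomedin 4, a secreted glycoprotein of intestinal crypt cells and of neutrophil granules. Control levels were 6.96 and 6.10 CPM. ATP4B-DTR 1 to 3 had 16.3, 15.5 and 16.4 CPM, GIF-DTR 1 to 3 had 19.6, 19.2 and 31.7 CPM, and GIF/ATP4B-DTR 1 to 3 had 9.92, 40.3 and 15.3 CPM. The ATP4B-DTR samples were nearly equal, whereas the combined line held both the lowest and the highest line sample.

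Olfm4 rose by 1.85 ± 0.52 log2 units in GIF-DTR and 1.74 ± 0.52 in the combined line (edgeR adjusted p of 0.0402 and 0.0284). In ATP4B-DTR it was 1.30 ± 0.52 log2 units above control and missed the threshold (edgeR adjusted p = 0.103), though it passed with DESeq2 (adjusted p = 0.0236), with only those 2 groups in the fit (edgeR adjusted p = 0.00570), and without GIF/ATP4B-DTR 1 or 2 (edgeR adjusted p of 0.0380 and 0.00601). Without GIF/ATP4B-DTR 2 the change in the combined line was 0.95 log2 units and still passed (edgeR adjusted p = 0.0279). The GIF-DTR call was lost without any 1 of the 2 controls, the 3 ATP4B-DTR or the 3 GIF-DTR samples, with edgeR adjusted p-values of up to 0.170, with no filter (edgeR adjusted p = 0.101), and with the Y-linked covariate (edgeR adjusted p = 0.265). The the combined line call was lost without control 1 or control 2 (edgeR adjusted p of 0.0908 and 0.149), with no filter (0.0801) and with only those 2 groups in the fit (0.122).

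Neutrophil markers stood beside Olfm4 as follows. The summed level of 14 neutrophil genes was 1.03 to 3.44 CPM in control, 1.82 to 3.12 in ATP4B-DTR, 1.51 to 7.14 in GIF-DTR and 0.484 to 1.24 CPM in the combined line. Ly6g, which defines mouse neutrophils, had 0 counts in 10 samples and 1 count in GIF/ATP4B-DTR 2. Of the 14 genes, 3 had enough counts to be tested. Among these, Retnlg had 2 and 14 counts in controls and 7, 57 and 135 in GIF-DTR 1 to 3, Csf3r had 1 and 8 against 5, 18 and 20, and Mmp9 had 0 and 14 against 3, 9 and 12. The granule and receptor genes S100a9 (8 and 10 against 0, 9 and 1), S100a8 (1 and 6 against 0, 3 and 1) and Cxcr2 (6 and 5 against 8, 9 and 2) were not higher throughout GIF-DTR. GIF-DTR 3 was highest of its line in Olfm4 and highest of all samples in the summed level, at 7.14 CPM, whereas GIF/ATP4B-DTR 2, the highest of all in Olfm4, had a summed level of 1.24 CPM. The part of neutrophils in the Olfm4 levels was not tested. The intestinal regulator Cdx2 had at most 0.207 CPM in any sample. Fabp2, another intestinal gene, was 10.7 CPM in control, 26.8 in GIF-DTR and 41.4 in the combined line (edgeR adjusted p of 0.0496 and 0.00519). Summed over 10 intestinal genes the level was 54.5 to 96.6 CPM in control and 121 to 128 in ATP4B-DTR. It was 91.7 to 159 in GIF-DTR and 124 to 186 CPM in the combined line. The part of such cells in the Olfm4 levels was not tested. In the annotation Olfm4 shares 22246 bases of its span with Gm6999 on the same strand, a gene not analysed here.

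Clu (ENSMUSG00000022037.15, chromosome 14, 65968483 to 65981547, plus strand) encodes clusterin, a secreted chaperone used as a SPEM marker. Its level was 1468 and 1049 CPM in controls 1 and 2. The level was 2880, 1278 and 1233 CPM across ATP4B-DTR 1 to 3, 3455, 1574 and 1287 CPM across GIF-DTR 1 to 3, and 2896, 1490 and 3107 CPM across GIF/ATP4B-DTR 1 to 3. Replicate 1 was far above the other samples in each single line. The others in ATP4B-DTR lay between the controls, and in GIF-DTR 1 of the others did. Only in the combined line were all 3 samples above both controls. The changes of 0.51 ± 0.51, 0.74 ± 0.52 and 0.99 ± 0.52 log2 units in ATP4B-DTR, GIF-DTR and the combined line did not pass (edgeR adjusted p of 0.511, 0.369 and 0.169). With the Y-linked covariate the Clu change was 1.19 log2 units for ATP4B-DTR and 1.94 for GIF-DTR, and still did not pass.

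The same samples stood out in several of these genes. ATP4B-DTR 1 was the highest of its line in Dmbt1, Wfdc2, Clu and Reg3g, and it is the 1 ATP4B-DTR sample with Y-linked expression. GIF/ATP4B-DTR 2 was the lowest of its line in Dmbt1, Wfdc2, Clu and Reg3g and the highest in Olfm4. The plot of fold changes sets 7 genes side by side, leaving out Lcn2, Reg3b and Nos2 for their low counts.

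**Figure D2:**
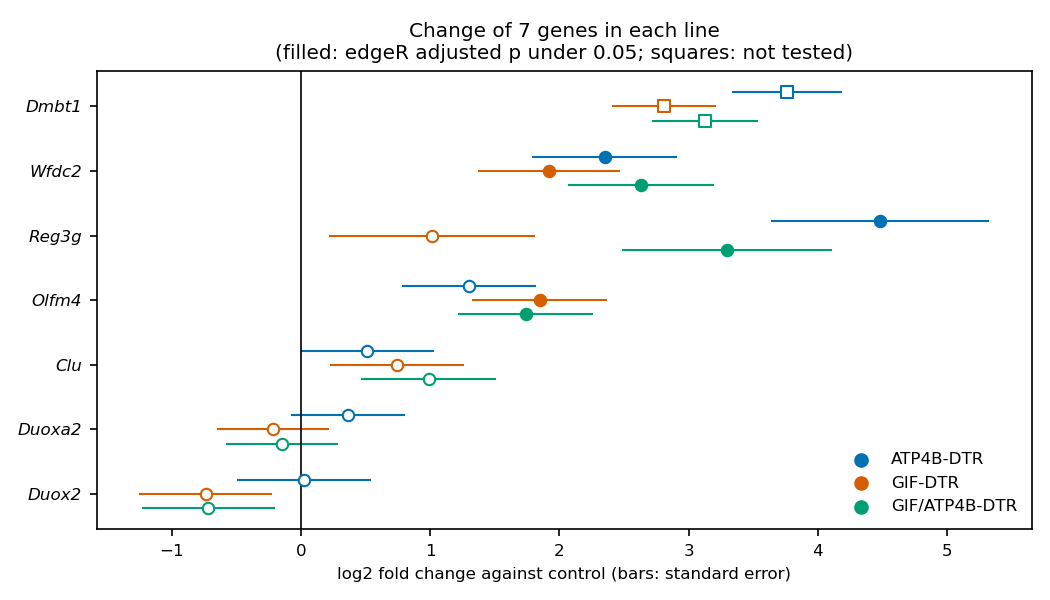
Log2 fold change against control (x axis) of 7 genes (rows) in ATP4B-DTR, GIF-DTR and the combined line (colours), with the standard error as bars; filled circles have an edgeR adjusted p under 0.05, open circles do not, and the open squares of Dmbt1 were not tested. Reg3g has the widest gap between lines, from 1.01 in GIF-DTR to 4.48 in ATP4B-DTR, and Duox2 lies at or below 0.02.

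Reg3g and Reg3b encode secreted C-type lectins of the gut epithelium with roles in defence against bacteria, Reg3g mainly against Gram-positive ones. Reg3g (ENSMUSG00000030017.2) lies on chromosome 6 from 78466269 to 78468872 on the minus strand, and Reg3b (ENSMUSG00000071356.7) on chromosome 6 from 78370657 to 78373466 on the plus strand. Their start sites in RefSeq are 97989 bases apart, and the counts of both genes were whole in all 11 samples. Reg3g was 1.39 and 0.333 CPM in controls 1 and 2. The level was 35.3, 18.0 and 6.50 CPM across ATP4B-DTR 1 to 3, 2.08, 2.40 and 0.913 CPM across GIF-DTR 1 to 3, and 11.01, 7.44 and 7.77 CPM across GIF/ATP4B-DTR 1 to 3. Samples of ATP4B-DTR and of the combined line all exceeded every control and every GIF-DTR sample, and GIF-DTR overlapped the controls.

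Reg3g rose by 4.48 ± 0.84 log2 units in ATP4B-DTR, a fold of 22.4, and by 3.29 ± 0.81 in the combined line, a fold of 9.81 (edgeR adjusted p of 0.00577 and 0.0119). In GIF-DTR its change of 1.01 ± 0.79 log2 units did not pass (edgeR adjusted p = 0.432). That value was 2.42 without control 1, 0.36 without control 2 and 2.54 with the Y-linked covariate, and passed in none of these (edgeR adjusted p of 0.242, 0.828 and 0.184). Without control 2, the lower of the controls, the value in the combined line was 2.64 log2 units and no longer passed (edgeR adjusted p = 0.0867). It was 4.70 without control 1 (edgeR adjusted p = 0.0188). The ATP4B-DTR value passed with each sample left out in turn, and was lowest without ATP4B-DTR 1 (3.78 log2 units) and highest without control 1 (5.88).

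The difference in Reg3g between lines was tested directly. GIF-DTR was lower than ATP4B-DTR by −3.47 ± 0.66 log2 units, which missed the threshold (edgeR adjusted p = 0.0666), with 3 of 3 samples lower. The same difference passed with DESeq2 (adjusted p = 1.37e-07) and without ATP4B-DTR 3 (edgeR adjusted p = 0.0108), and it was −2.77 log2 units with the Y-linked covariate and −2.76 without ATP4B-DTR 1 (edgeR adjusted p of 0.155 and 0.154). The combined line exceeded GIF-DTR by 2.28 ± 0.64 log2 units, with no overlap of samples (12.2% of all genes), and missed the threshold (edgeR adjusted p = 0.109), but passed with DESeq2 (adjusted p = 0.00159), and with the Y-linked covariate it was 0.76 log2 units (edgeR adjusted p = 0.831). The combined line and ATP4B-DTR overlapped, with a difference of −1.19 ± 0.59 log2 units (edgeR adjusted p = 0.521), which was −0.50 without ATP4B-DTR 1 and −2.01 with the Y-linked covariate.

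By contrast Reg3b had 29 and 1 counts in controls 1 and 2. ATP4B-DTR 1 to 3 had 22, 18 and 0 counts, GIF-DTR 1 to 3 had 2, 0 and 0, and GIF/ATP4B-DTR 1 to 3 had 6, 6 and 1. The highest level, 1.30 CPM, was in a control, and the range within control and within ATP4B-DTR ran from at or under the floor to about 1 CPM. It passed in none of the 6 comparisons. Control 1, the sample with 29 counts, was also the highest in the intestinal genes Cdh17, Sis and Alpi. These had 31, 13 and 124 counts there, against at most 3, 0 and 64 in the other samples. Control 1 was highest in Muc2 and Defa24 too, but not in Vil1, Fabp2, Lgr5, Cdx1 or Cdx2. The part of intestinal cells in the Reg3b and Reg3g levels was not tested. Reg3g counts exceeded Reg3b counts by 1.07 and 6 times in the controls, the latter on 1 Reg3b count. At 3 or more Reg3b counts, ATP4B-DTR 1 and 2 had ratios of 34.5 and 22.8. GIF/ATP4B-DTR 1 and 2 had 45.5 and 29. In the other line samples Reg3b was under 3 counts, so no ratio is given.

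The upstream regions of these genes are shown because the genes are neighbouring paralogs, of which Reg3g was called in 2 lines and Reg3b in 0. Each run covers 250 bases before to 50 after the RefSeq start site, 5′ to 3′ on the gene's own strand, for Reg3b at chr6:78370635-78370934 (plus) and for Reg3g at chr6:78468825-78469124 (minus), GRCm38.p6. Capitals mark matches to a STAT motif (TTCNNNGAA), an NF-kB motif (GGG and CC with 5 bases of any kind between) and a TATA box (TATAAA), each on either strand.
Reg3b: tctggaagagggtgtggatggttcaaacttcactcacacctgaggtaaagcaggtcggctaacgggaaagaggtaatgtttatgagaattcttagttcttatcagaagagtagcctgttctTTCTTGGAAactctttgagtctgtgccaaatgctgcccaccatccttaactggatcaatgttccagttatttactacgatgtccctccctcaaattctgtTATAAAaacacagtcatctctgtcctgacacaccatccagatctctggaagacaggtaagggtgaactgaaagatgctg
Reg3g: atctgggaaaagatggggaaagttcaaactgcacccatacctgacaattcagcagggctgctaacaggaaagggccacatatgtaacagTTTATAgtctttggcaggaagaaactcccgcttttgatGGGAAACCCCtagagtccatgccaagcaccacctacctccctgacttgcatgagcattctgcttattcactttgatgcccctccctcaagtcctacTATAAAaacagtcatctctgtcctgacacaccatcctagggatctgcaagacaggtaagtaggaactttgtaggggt
The windows share 207 of 296 aligned bases (69.9%). Both carry TATAAA, first base at −29 in Reg3b and −27 in Reg3g, and Reg3g has TTTATA, the same letters on the other strand, at −161. Reg3b has the STAT letters at −129. Reg3g has the NF-kB letters at −123, and neither window holds the other's match. Among 32851 promoters of the same length, 8.30% hold the STAT letters, 50.8% the NF-kB letters and 13.6% the TATA letters. Of the 10 genes, 7 had a promoter in the table, and these motifs were found in 1, 4 and 3 of them, the NF-kB letters in Wfdc2, Lcn2, Reg3g and Olfm4.

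Other Reg family genes were mostly at or near the floor. Reg3a and Reg3d had 0 counts in all samples, and Reg4 reached at most 0.135 CPM. Reg1 was 2.16 and 0.277 CPM in controls, 4.05, 6.06 and 0.787 CPM across ATP4B-DTR 1 to 3, and at most 1.33 CPM in the other lines. Reg2 was at most 0.941 CPM. Neither Reg1 nor Reg2 passed against control. Pancreas also makes Reg proteins. ATP4B-DTR 2, the highest in Reg1, was the highest sample in pancreatic Ctrb1 (5.93 CPM, against at most 0.356 in the others). ATP4B-DTR 1, next in Reg1 at 4.05 CPM, had 0.0931 CPM of Ctrb1. Summed over 10 acinar genes the level was 46.9 to 105 CPM in control and 42.4 to 68.4 in ATP4B-DTR. It was 11.3 to 38.6 in GIF-DTR and 15.7 to 36.9 CPM in the combined line. Control 2, the highest in this sum, had 0.277 CPM of Reg1. Most of the control sums came from Cel (14.5 and 26.2 CPM) and Pnliprp1 (28.3 and 59.8 CPM). In each of the other acinar genes ATP4B-DTR 2 was the highest sample. Among them, Cpa1 was 2.24 CPM there (at most 0.166 elsewhere) and Prss2 1.93 CPM (at most 0.0473 elsewhere). The part of acinar cells in the levels of Reg genes was not tested.

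The genes whose log2 CPM followed Reg3g most closely over the 11 samples, among 10327 tested genes with a mean of at least 5 CPM, were Ltc4s (Pearson r = 0.963, Spearman rho = 0.964), S100a13 (0.961, 0.982) and Pigr (0.951, 0.955). Pigr encodes the receptor that carries IgA across the epithelium. It was 35.6 and 18.0 CPM in controls, 540, 275 and 117 CPM across ATP4B-DTR 1 to 3, 29.2, 61.6 and 25.7 CPM across GIF-DTR 1 to 3, and 164, 82.5 and 62.7 CPM across GIF/ATP4B-DTR 1 to 3. Like Reg3g, Pigr was higher in each sample of ATP4B-DTR and of the combined line than in every GIF-DTR sample and control. These genes were picked as the closest of many, and the r values are a description.

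**Figure D3:**
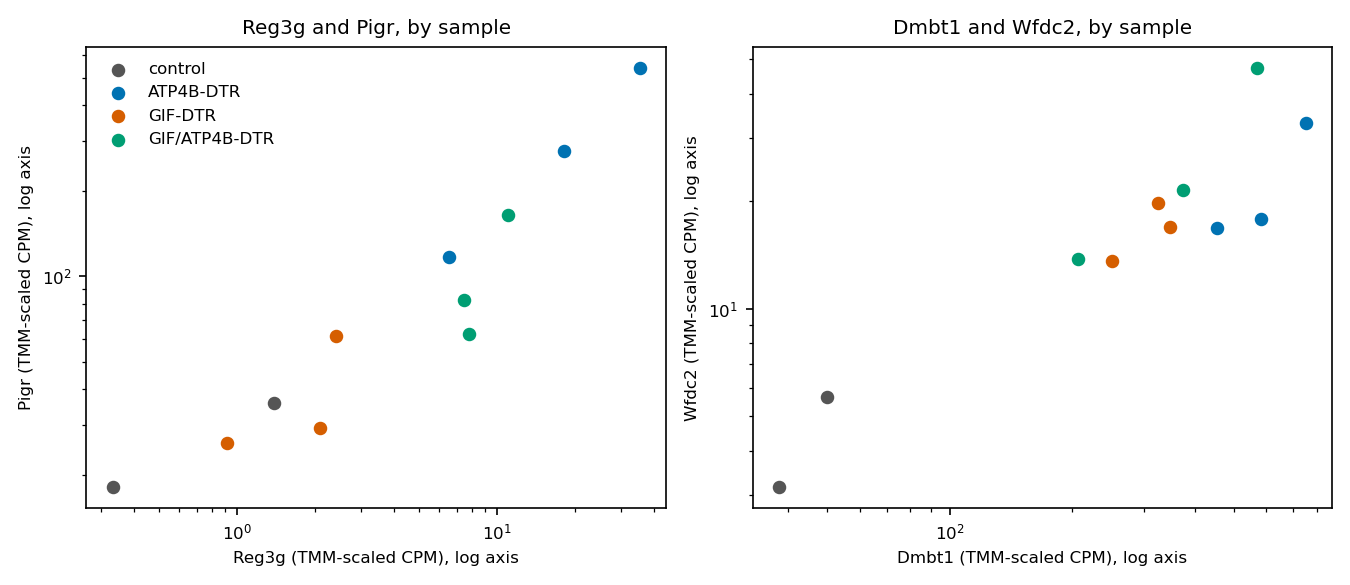
Left, Pigr against Reg3g, and right, Wfdc2 against Dmbt1, both in TMM-scaled CPM on log axes, with 1 point per sample coloured by genotype. ATP4B-DTR samples lie at the upper right on the left panel, from 6.50 to 35.3 CPM of Reg3g, and GIF-DTR samples lie lower, at 0.913 to 2.40 CPM, overlapping the controls, whereas on the right panel all lines lie above the controls.

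For Dmbt1 the closest genes were Tpgs1 (r = 0.946, rho = 0.800), Krt7 (0.945, 0.845) and Grip2 (0.938, 0.718), over the same 11 samples. Krt7, a keratin of ductal and simple epithelia, was also among the closest to Wfdc2 (r = 0.945, rho = 0.936), after Sftpd (0.953, 0.782) and Bad (0.946, 0.855). Krt7 was 5.25 and 6.99 CPM in controls and between 28.6 and 154 CPM in the lines. Sftpd encodes surfactant protein D, a secreted collectin that binds microbes, and went from 0.359 and 0.111 CPM in controls to between 3.69 and 27.9 CPM in the lines. Controls and lines form separate groups of points in Dmbt1 and Wfdc2, and no r within genotypes was computed for Tpgs1, Krt7, Grip2, Sftpd or Bad. For Dmbt1 with Wfdc2, r was 0.935 over the 11 samples and 0.934 within genotypes. With Olfm4 the sign turned: r was 0.493 over all samples and −0.839 within genotypes for Dmbt1, and 0.397 and −0.707 for Wfdc2. Olfm4 was closest to Prps1 (r = 0.940, rho = 0.827), Rexo2 (0.933, 0.691) and Rbm43 (0.933, 0.982). Clu was closest to Pygo2 (0.927, 0.900), Phf23 (0.910, 0.927) and Cdk9 (0.890, 0.936). The closest to Reg3b were Cox7a2l (0.930, 0.917), Txndc17 (0.919, 0.927) and Cxadr (0.915, 0.826), and to Lcn2 Polr3gl (0.850, 0.873), Apbb2 (0.839, 0.882) and Plac9b (0.817, 0.864), both at low counts.

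Duox2 (ENSMUSG00000068452.7) encodes the dual oxidase that releases hydrogen peroxide at the epithelial surface, and Duoxa2 (ENSMUSG00000027225.7) encodes the factor that carries it out of the endoplasmic reticulum. They lie on chromosome 2, Duox2 from 122279247 to 122298449 on the minus strand and Duoxa2 from 122298900 to 122302885 on the plus strand. Duox2 was 803 and 418 CPM in controls 1 and 2, 417, 1011 and 431 CPM across ATP4B-DTR 1 to 3, 195, 593 and 310 CPM across GIF-DTR 1 to 3, and 321, 343 and 450 CPM across GIF/ATP4B-DTR 1 to 3. Every line overlapped the controls. The ATP4B-DTR sample highest in Duox2 was number 2, not the sample highest in Dmbt1, Wfdc2 and Reg3g.

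Duoxa2 was 261 and 129 CPM in controls, 207, 386 and 158 CPM across ATP4B-DTR 1 to 3, 126, 239 and 137 CPM across GIF-DTR 1 to 3, and 135, 192 and 200 CPM across GIF/ATP4B-DTR 1 to 3. It too overlapped the controls in each line. Duox2 changed by 0.02 ± 0.52, −0.74 ± 0.51 and −0.72 ± 0.51 log2 units in ATP4B-DTR, GIF-DTR and the combined line, and Duoxa2 by 0.36 ± 0.44, −0.22 ± 0.43 and −0.15 ± 0.43. None passed, with edgeR adjusted p-values between 0.307 and 0.982. Duox2 in GIF-DTR was −1.53 log2 units with the Y-linked covariate. Without control 1, Duoxa2 was above control in all 3 lines, by 0.96, 0.38 and 0.45 log2 units, and again passed in none. With standard errors of this size a moderate change in either direction may have gone undetected. Counts of Duoxa2 were fractional in all 11 samples. Its 3′ end overlaps the opposite-strand gene Duoxa1 by 695 bases, so reads there may be divided between them.

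The pair is transcribed head to head, and the regions before both start sites are shown because the transcripts followed each other across samples. The RefSeq starts are 673 bases apart. The runs cover Duox2 at chr2:122298178-122298477 (minus) and Duoxa2 at chr2:122298650-122298949 (plus), GRCm38.p6, 5′ to 3′ on each gene's strand, with the same motifs in capitals.
Duox2: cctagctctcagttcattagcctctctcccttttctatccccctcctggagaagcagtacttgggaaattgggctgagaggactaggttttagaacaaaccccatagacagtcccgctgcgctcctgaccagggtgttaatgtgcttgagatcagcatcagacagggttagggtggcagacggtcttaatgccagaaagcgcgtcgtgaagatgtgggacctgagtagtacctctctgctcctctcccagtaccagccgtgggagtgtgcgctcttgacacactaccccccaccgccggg
Duoxa2: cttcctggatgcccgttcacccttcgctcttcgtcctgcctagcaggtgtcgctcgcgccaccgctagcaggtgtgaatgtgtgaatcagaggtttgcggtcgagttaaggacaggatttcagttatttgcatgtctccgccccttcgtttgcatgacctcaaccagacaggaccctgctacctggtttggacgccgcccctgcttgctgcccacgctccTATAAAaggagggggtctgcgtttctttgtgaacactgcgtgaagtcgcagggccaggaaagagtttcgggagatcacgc
In the Duoxa2 window the TATA letters begin at −30, and no other match was found. The Duox2 window holds none of the 3 motifs. Duox2 was among the 3 genes closest to Duoxa2 (r = 0.881, rho = 0.827), with Cldnd1 (0.933, 0.782) and Etv3 (0.870, 0.782). The closest to Duox2 were Pim1 (0.931, 0.973), Gpd2 (0.927, 0.809) and Fos (0.921, 0.936), of which Fos is an immediate early gene.

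Per count of Duox2 there were 0.325 and 0.308 counts of Duoxa2 in controls 1 and 2. The ratio was 0.496, 0.382 and 0.367 in ATP4B-DTR 1 to 3, 0.648, 0.403 and 0.442 in GIF-DTR 1 to 3, and 0.419, 0.561 and 0.445 in GIF/ATP4B-DTR 1 to 3. All 9 line samples had a higher ratio than both controls. This ratio was computed after the values were seen and was not tested, and the share of Duoxa2 reads that may belong to Duoxa1 is unknown.

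**Figure D4:**
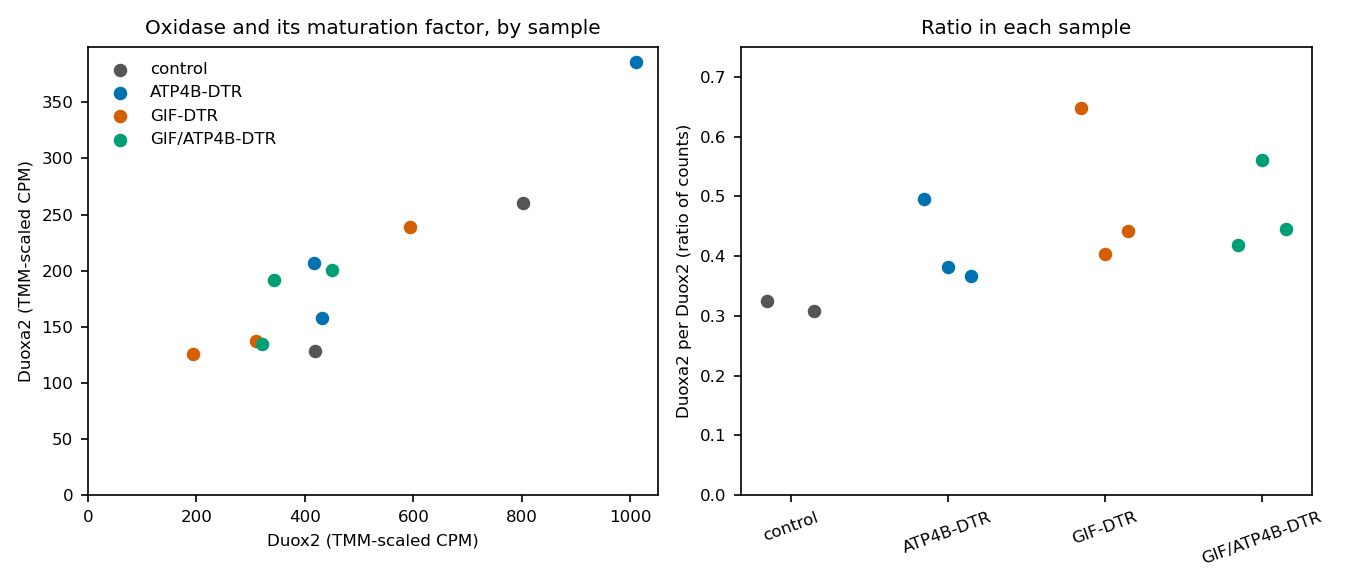
Left, Duoxa2 against Duox2 in TMM-scaled CPM (linear axes from 0), 1 point per sample coloured by genotype; right, counts of Duoxa2 per count of Duox2 in each sample (y axis from 0) by genotype. The lines overlap the controls on the left, and on the right the controls are at 0.325 and 0.308, under the lowest line sample at 0.367.

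The paralogous pair was far lower. Duox1 had between 0 and 7 counts in a sample. Duoxa1 was 5.84 and 3.27 CPM in controls and between 3.83 and 12.9 CPM in the lines, and passed in none of the comparisons with control. Of 8 tested genes in the list of the epithelial oxidase system, 1 was higher in each single line and 2 in the combined line. Gpx2, a glutathione peroxidase that removes hydrogen peroxide, was the called gene in each line. Control mucosa held 69.7 ± 16.9 CPM of it (SD, n = 2), ATP4B-DTR 356 ± 150, GIF-DTR 169 ± 24.2 and the combined line 291 ± 40.7 (n = 3 each), where edgeR's adjusted p was 0.00181, 0.0291 and 0.00153. Cyba, the small subunit of other NADPH oxidases, rose in the combined line from 22.1 ± 2.43 to 44.3 ± 8.89 CPM (edgeR adjusted p = 0.00769). The lactoperoxidase gene Lpo had 0 counts in all samples.

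Lcn2 (ENSMUSG00000026822.14, chromosome 2, 32384633 to 32388252, minus strand) encodes lipocalin-2, which binds bacterial siderophores. It had 8 and 14 counts in controls 1 and 2. ATP4B-DTR 1 to 3 had 16, 4 and 1 counts, GIF-DTR 1 to 3 had 16, 7 and 1, and GIF/ATP4B-DTR 1 to 3 had 9, 13 and 3. All groups overlapped, and the mean was 0.568 ± 0.295 CPM (SD, n = 2) in control and between 0.321 and 0.357 CPM in the lines. It passed in none of the 6 comparisons, and no rise was detectable at this depth.

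Nos2 (ENSMUSG00000020826.8, chromosome 11, 78920787 to 78960254, plus strand) encodes inducible nitric oxide synthase of macrophages and inflamed epithelium. It had 0 and 2 counts in controls, at most 6 counts in ATP4B-DTR and the combined line, and 2, 12 and 4 counts across GIF-DTR 1 to 3. It was the 1 gene of the 10 that did not pass the filter on low counts, and it has no test. Of 10 macrophage and monocyte genes, the summed level was 80.5 to 90.5 CPM in GIF-DTR, 18.4 to 64.3 in control, 40.1 to 54.2 in ATP4B-DTR and 33.1 to 50.3 CPM in the combined line. Their part in the Nos2 counts was not tested.

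Compared per kilobase of the longest annotated transcript, the order in control was Clu (695 CPM per kb), Duoxa2 (122), Duox2 (99.9), Dmbt1 (7.01), Wfdc2 (5.19), Olfm4 (2.33), Reg3b (0.867), Lcn2 (0.413), Reg3g (0.413) and Nos2 (0.0132). The ranges of the 2 controls overlapped between Duoxa2 and Duox2, between Dmbt1 and Wfdc2, and among Reg3b, Lcn2 and Reg3g. In ATP4B-DTR the order of levels per kb was Clu (993), Duoxa2 (157), Duox2 (101.4), Dmbt1 (95.0), Wfdc2 (26.7), Reg3g (9.55) and Olfm4 (5.75). In that line the samples of Duoxa2, Duox2 and Dmbt1 overlapped each other, and those of Reg3g spanned Olfm4, so neither set has an order beyond its spread. In GIF-DTR Reg3g (0.861) stood below Olfm4 (8.39). In the combined line Duox2 (60.7) and Dmbt1 (61.2) were level, and Reg3g (4.18) again stood below Olfm4 (7.80), with overlapping samples.

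None of the 9 tested genes passed edgeR's test between lines. At an unadjusted p under 0.05, 3 were lower in GIF-DTR than in ATP4B-DTR (Dmbt1, Reg3b and Reg3g), 1 was higher in the combined line than in GIF-DTR (Reg3g) and 0 differed between the combined line and ATP4B-DTR. DESeq2 called 1, 1 and 0 of the 9 in the same comparisons, Reg3g in both cases. Over all 14889 genes, edgeR called 0.49%, 2.53% and 0% in these comparisons, and 1460, 2687 and 1554 genes had an unadjusted p under 0.05. DESeq2 called 278 genes in the last of them.

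Other antimicrobial products, from a list of 27 genes, gave 13 tested genes. Of these, 1 was higher in ATP4B-DTR and 2 in the combined line. In GIF-DTR edgeR called 0, with 1 at an unadjusted p under 0.05 and 1 called by DESeq2. Pglyrp1, which encodes a peptidoglycan-binding protein, stood at 12.9 ± 2.80 CPM in control (SD, n = 2) and rose to 32.4 ± 11.6 in ATP4B-DTR and 37.8 ± 17.3 in the combined line (n = 3 each), where edgeR's adjusted p was 0.0305 and 0.0105. It was 18.7 ± 1.94 CPM in GIF-DTR (edgeR adjusted p = 0.365). The other call, Wfdc12 in the combined line, was of a gene at 1.86 CPM or less. Higher calls made up 12.2%, 9.97% and 18.2% of all genes tested in ATP4B-DTR, GIF-DTR and the combined line. The median of the list was 1.13, 0.72 and 0.69 log2 units in the 3 lines. That of all genes was −0.01, −0.01 and −0.04, and that of the SPEM genes described below was 1.05, 0.89 and 1.09. The median covers only the 13 genes that passed the count filter, and most of these were not called. Among them, Wfdc12 had 3 counts in each control.

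In the list of the interleukin-22, interleukin-17 and NF-kB axis, 23 genes were tested. Of these, 2 were higher and 2 lower in ATP4B-DTR, and 5 higher and 1 lower in GIF-DTR. The combined line had 8 higher and 1 lower. Over all genes tested, 21.6%, 16.8% and 33.6% were called in these lines. Relb, an NF-kB subunit, rose in each line, from 9.11 ± 1.28 CPM (SD, n = 2) to 19.9 ± 2.74, 30.1 ± 9.24 and 35.4 ± 12.0 (n = 3 each), where edgeR's adjusted p was 0.0273, 0.00666 and 0.00118. The cytokine gene Tnf had 1 count in each control, 13, 27 and 16 in ATP4B-DTR, 7, 52 and 16 in GIF-DTR, and 28, 30 and 82 in the combined line (edgeR adjusted p of 0.0241, 0.0218 and 0.00409). The chemokine gene Cxcl1 had 4 and 3 counts in controls and passed in GIF-DTR, at 2.49 ± 1.33 CPM, and in the combined line, at 1.49 ± 0.82 (edgeR adjusted p of 0.0134 and 0.0156). Ccl20, another epithelial chemokine, passed in the combined line at 1.06 ± 0.52 CPM and in GIF-DTR at 0.951 ± 0.641 CPM (edgeR adjusted p of 0.0213 and 0.0452). Il22 had 1 count in all 11 samples together. Its receptor gene Il22ra1 was 4.04 ± 3.05 CPM in control and 6.86 ± 1.52, 7.75 ± 3.19 and 10.2 ± 2.65 CPM in ATP4B-DTR, GIF-DTR and the combined line, and did not pass (edgeR adjusted p of 0.283, 0.205 and 0.0515). Muc1, a membrane mucin, was lower in each line, with changes of −0.85, −0.63 and −0.63 log2 units (edgeR adjusted p of 0.00980, 0.0434 and 0.0259). Il10rb, the other chain of the interleukin-22 receptor, was lower in ATP4B-DTR, with a change of −0.52 log2 units (edgeR adjusted p = 0.0245).

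Among 16 SPEM genes outside this group, all tested, 6 were higher and 1 lower in ATP4B-DTR. The numbers were 4 and 2 in GIF-DTR, and 5 and 1 in the combined line. Over all genes tested, 21.6%, 16.8% and 33.6% were called in the 3 lines. The water channel gene Aqp5 rose from 2.57 ± 0.74 CPM (SD, n = 2) to 13.7 ± 2.47, 19.4 ± 4.86 and 23.5 ± 8.15 (n = 3 each), where edgeR's adjusted p was 0.00116, 0.00118 and 0.000134. Gkn3, a neck cell gastrokine, rose in ATP4B-DTR from 19.0 ± 12.2 to 149 ± 35.5 CPM (edgeR adjusted p = 0.0234), and at 46.3 ± 2.02 and 61.4 ± 54.4 CPM it did not pass in GIF-DTR and the combined line (edgeR adjusted p of 0.244 and 0.0954). The chloride channel gene Cftr was higher in each line, and the gland mucin gene Muc6 was lower in each line, by −2.46, −3.64 and −5.18 log2 units in ATP4B-DTR, GIF-DTR and the combined line (edgeR adjusted p of 0.0102, 0.00352 and 0.000266).

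Markers of other cell types were counted beside these genes. Of 3 neutrophil genes tested, 0 passed edgeR's test in any line, with 0 at an unadjusted p under 0.05 and 0 by DESeq2. Of 10 macrophage and monocyte genes, 1 was higher in each line, Cd14. It was 9.22, 7.90 and 11.9 CPM in ATP4B-DTR, GIF-DTR and the combined line against 3.04 in control. In ATP4B-DTR 1 was lower, and in the combined line 2 were. The latter included Ptprc, at 2.33 ± 0.50 CPM (SD) against 5.25 ± 1.90 in control (edgeR adjusted p = 0.0234). The median of the list was −0.05, 0.83 and −0.54 log2 units in the 3 lines. Of 5 tested acinar genes, 1 was lower in the combined line (Cel). Of 5 tested intestinal genes, Fabp2 was higher in GIF-DTR and the combined line. Forestomach squamous genes reached summed levels of 1.21 CPM in control, 20.5 CPM in ATP4B-DTR and, for GIF-DTR and the combined line, 2.70 and 4.83 CPM. Of these, Krt13 was higher in ATP4B-DTR, while Krt5 and Trp63, which define squamous basal cells, had 0 counts in all samples. Krt4 had 0 counts in both controls, 4, 3 and 1 in ATP4B-DTR 1 to 3 and at most 4 in the other lines. Krt14 had 0 in both controls, 2, 1 and 0 in ATP4B-DTR 1 to 3 and at most 5 in the other lines. Of 7 pit cell genes, Gsta1 was higher in ATP4B-DTR and the combined line and Muc5ac lower in the combined line. Of 5 antral genes, Pdx1 was higher in GIF-DTR and the combined line, and the antral hormone gene Gast was at most 1.94 CPM in any sample. The part of these cell types in the levels of the 10 genes was not tested.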

How the data were processed

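Libraries were made with a TruSeq stranded mRNA kit, per the labels' protocols. The authors deposited 1 table of expected counts per gene for the 11 samples. That unit was read from the values, of which 30.7% of the nonzero entries are fractional. The build is mm10, per the submitters' processing notes. The aligner, the quantifier and the annotation are not given in the sources used here. Symbols were matched for 99.2% of the 34866 rows, and 0 columns were left unused. Coordinates and lengths are from GENCODE M21 and promoters from RefSeq, both of GRCm38.

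Expected counts were rounded. Genes passing filterByExpr (14889) were scaled by TMM and fitted with edgeR 4.0.16 in R 4.3.3 (quasi-likelihood, robust), 1 coefficient per genotype over all 11 samples. P-values were Benjamini-Hochberg adjusted over all genes tested within each of 6 comparisons. A standard error is the log2 fold change divided by the square root of F. The fit was tested on simulated data. Replicates are separate samples by their labels. Nothing says that they are separate animals, so p-values measure the spread between these samples. The floor of 3 counts covers counting error only.

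Alternatives were DESeq2 1.42.0 (its Wald test, and its size factors within edgeR), TMM without the 50 most abundant genes, no filter, at least 10 counts in every sample, only the 2 groups compared, Y-linked expression as a covariate, and each sample left out in turn. With 1 control left, that sample is assumed to vary like the other groups. The 10 genes and the lists were chosen with earlier results of these data known. Named were the 10 genes, fixed partner and Reg family genes, in each list and comparison with control up to 3 called genes with the largest change and at least 1 CPM in a group mean, and the 3 genes most like each of the 10. Cdx2, Ctrb1, Krt5, Trp63, Ly6g, Retnlg, Csf3r, Mmp9, S100a8, S100a9, Cxcr2, Lpo, Fgfr2, Wfdc12 and Gast were named outside that rule, after their values were seen. The same holds for Cpa1, Prss2, Pnliprp1, Cdh17, Sis, Alpi, Muc2, Defa24, Vil1, Lgr5, Cdx1, Krt4 and Krt14.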

Additional observations from a re-analysis of the deposited data

How the results depend on the processing

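Calls among the 8 genes tested against control, leaving out Dmbt1, numbered 2 for each single line and 3 for GIF/ATP4B-DTR, the combined line. With at least 10 counts in every sample, a filter that removed Reg3g, the number was 1 for ATP4B-DTR and 2 for the combined line. DESeq2 gave 3 for ATP4B-DTR, and so did fitting only the 2 groups. The combined line had 2 with no filter and 2 with only the 2 groups. In GIF-DTR it was 0 with no filter on low counts and 0 with the Y-linked covariate; the cause was not tested. Leaving out 1 sample gave 1 to 3 in ATP4B-DTR, 0 to 2 in GIF-DTR and 0 to 3 in the combined line. Between lines, where the number was 0, DESeq2 gave 1 for GIF-DTR against ATP4B-DTR and 1 for the combined line against GIF-DTR, and fitting only the 2 groups gave 1 for the latter. Leaving out 1 sample gave 0 to 1 in both. Over all alternatives the genes called in the whole table ranged from 1315 to 3866 in ATP4B-DTR (3211 as reported), 438 to 3291 in GIF-DTR (2500) and 2874 to 5617 in the combined line (5005), and between lines from 17 to 360 (73), 0 to 278 (0) and 14 to 927 (376). Every alternative kept Wfdc2, Reg3g where tested, and Olfm4 above control in all 3 lines. No paired analysis was possible because the replicate numbers of the lines are only accession order. Depth limits Lcn2, Reg3b and Nos2, for which a change within a few counts could not have been seen, and 2 controls limit every comparison with control.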
